A study of Mus musculus and Homo sapiens with 32 samples.

Results

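Whether a kidney answers obstruction differently once Pcmt1 is deleted was examined as a difference of differences: the change from sham surgery to unilateral ureteral obstruction (UUO) in Pcmt1 tKO kidneys, minus the same change in Pcmt1 fl/fl kidneys. The 12 libraries that form this contrast, of 32 samples in the series, were chosen by genotype and treatment label and not by any measured value. They are fl/fl sham, fl/fl UUO, tKO sham and tKO UUO, with 3 libraries each, all whole mouse kidney, and all 4 groups received DMSO, the vehicle. A further 6 libraries of kidneys given UUO and LY2109761, an inhibitor of TGF-β receptor kinases, were in the fit but not in the contrast. They entered the filter on low counts, the scaling and the estimate of the spread. The fl/fl genotype carries Pcmt1 alleles flanked by loxP sites. The labels do not spell out tKO, and the Cre driver, the cells that lose the gene, the age of the mice and the days of obstruction are not given in the sources used here. Nor do the labels say whether replicates were separate animals, so each p-value reflects the variation among these libraries alone and may hold technical variation only. In bulk tissue, fewer cells of a type and less RNA per cell cannot be told apart.

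PCMT1 is a methyltransferase that starts the repair of damaged, isoaspartyl-containing proteins. In UUO a ligated ureter raises pressure in the nephron, proximal tubule cells are injured and lose their transporters, leukocytes enter, and stromal cells lay down collagen under signals that include TGF-β. TGF-β1 binds the receptor TGFBR2, which recruits TGFBR1, and the pair phosphorylates SMAD2 and SMAD3, which enter the nucleus with SMAD4, while SMAD7 restrains the pathway. The series title names this axis, which is the question behind the contrast: a positive difference means that a gene went further up, or less far down, in tKO than in fl/fl kidneys, and a negative one the reverse.

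The libraries were checked first. Totals ran from 14271363 to 19565376 counts. Pcmt1, the targeted gene (GRCm38 chromosome 10, 7629373 to 7681136), stood at 48.95, 43.4 and 42.8 CPM (reads per 1000000 of the TMM-scaled library size) in fl/fl sham and 41.4, 35.3 and 40.6 CPM in fl/fl UUO. It stood at 49.3, 22.7 and 24.3 CPM in tKO sham and 26.1, 24.7 and 26.1 CPM in tKO UUO. Of the 6 tKO libraries, 5 lay below every fl/fl library, and the library labelled tKO sham replicate 1 lay above all of them, so it went against its label. Its Slc30a7 and Rarres2 levels, given below, lay with the other tKO sham libraries. Mitochondrially encoded genes took 30.8% to 35.5% of the counts in fl/fl sham, 7.43% to 7.67% in fl/fl UUO and 9.88% to 16.2% in tKO UUO. In tKO sham they took 33.7%, 49.7% and 69.5% in replicates 1, 2 and 3. Calls and list medians are therefore given with and without the library labelled tKO sham replicate 1. The kidney label held: all 34 listed proximal tubule markers were detected, and their summed level fell between 49420 and 67490 CPM in fl/fl sham.

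**Figure D1:**
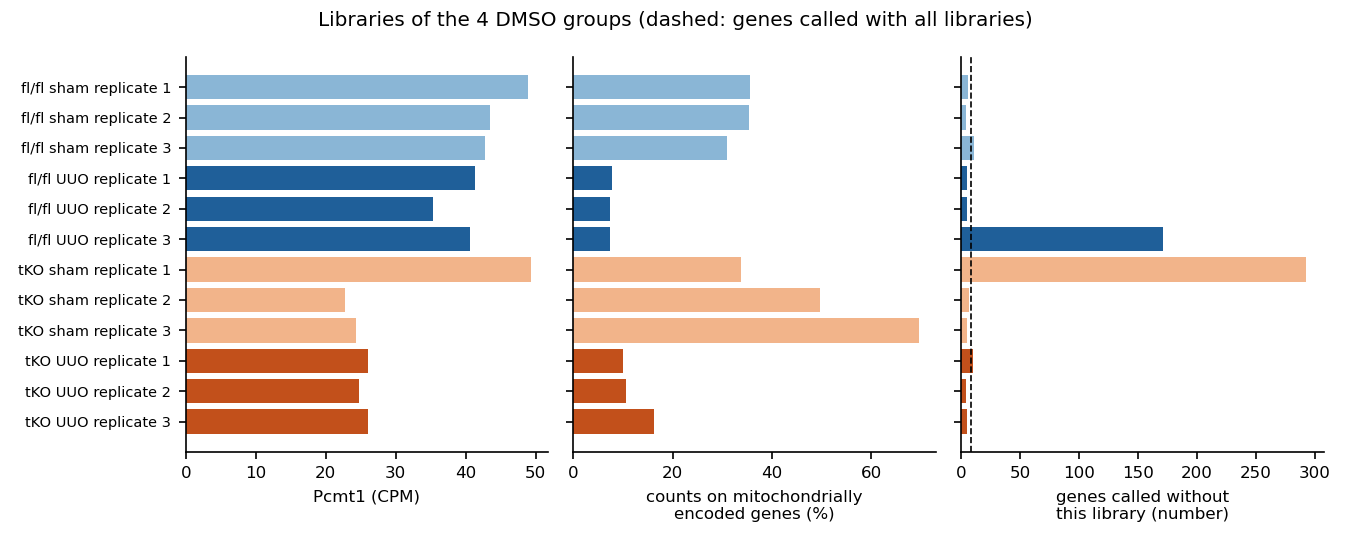
Bars show, for each of the 12 libraries, Pcmt1 in CPM (left), the percent of counts on mitochondrially encoded genes (middle) and the number of genes called when that library is left out of the fit (right, dashed line at the 8 genes called with all libraries). The library labelled tKO sham replicate 1 has the highest Pcmt1 level, 49.3 CPM, and leaving it out gives 293 genes.

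Few genes answered obstruction differently by this test. In edgeR's quasi-likelihood test, 8 of 19256 genes (0.0415%) passed an adjusted p of 0.05. The response was greater in tKO for 2 of them (0.0104%), Slc30a7 and Rarres2, and lower for 6 (0.0312%), Gys1, Irf1, Adcy1, Ttll12, Havcr1 and G930009F23Rik. Without adjustment, 2423 genes (12.6%) had p under 0.05, 1216 with a positive difference and 1207 with a negative one. The count moved with the tool and with single libraries: DESeq2 called 412 genes, among them all 8, and edgeR with column totals in place of TMM factors called 0, with 1777 genes at unadjusted p under 0.05. Without the library labelled tKO sham replicate 1, edgeR called 293 of 19742 genes (1.48%), 216 positive (1.09%) and 77 negative (0.39%), and at unadjusted p under 0.05 it had 1745 positive (8.84%) and 1433 negative genes (7.26%). Without fl/fl UUO replicate 3 it called 171. All 8 genes were among both of these, and 87 genes were shared, 29.7% of the 293 and 50.9% of the 171.

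**Figure D2:**
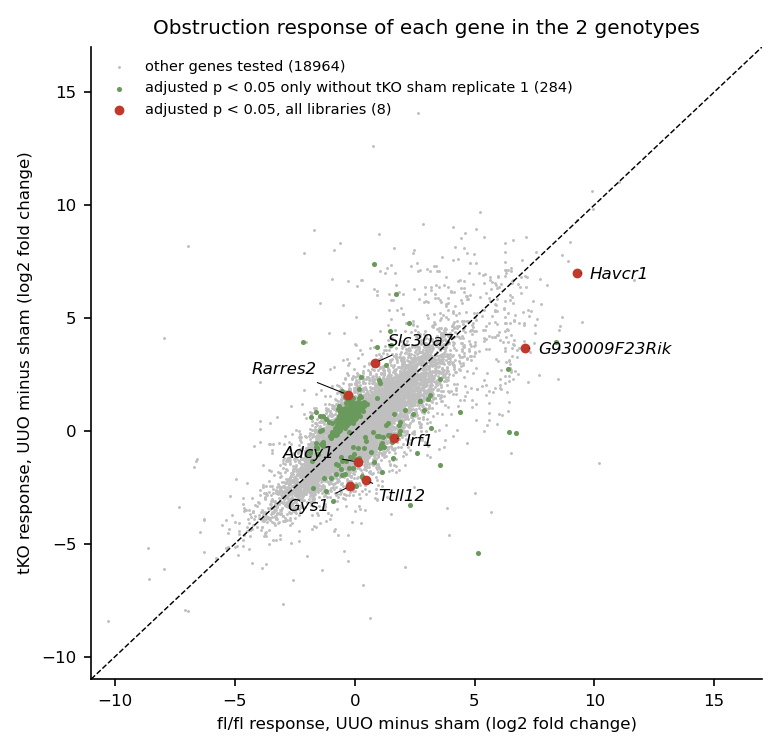
Each point is a gene, with its UUO minus sham response in fl/fl kidneys on the horizontal axis and in tKO kidneys on the vertical axis (log2 fold change), and the dashed line marks equal responses. The 8 labelled genes passed adjusted p 0.05 with all libraries, and the 284 green points passed it, among genes tested in both fits, only without the library labelled tKO sham replicate 1.

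The 8 genes differed in which genotype moved. In 3 of them (Gys1, Adcy1 and Ttll12) obstruction lowered the gene in tKO and passed no test in fl/fl. Rarres2 rose in tKO alone, Irf1 rose in fl/fl alone, and Slc30a7, Havcr1 and G930009F23Rik rose in both genotypes by unequal amounts. The gap between genotypes was larger among sham kidneys for 4 of the 8 and larger among obstructed kidneys for the other 4. It changed sign from sham to UUO in 6. The 8 were called on the difference between those gaps, so a change of sign is partly built in. The shares over all genes were not counted. All 8 passed without the library labelled tKO sham replicate 1, with differences of -2.30 for Gys1, 2.22 for Slc30a7, 1.94 for Rarres2, -2.09 for Irf1, -1.50 for Adcy1, -2.98 for Ttll12, -2.16 for Havcr1 and -3.32 for G930009F23Rik.

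Gys1, the muscle form of glycogen synthase (chromosome 7, 45434844 to 45456619, plus strand), gave the smallest p. It stood at 40.9, 41.6 and 35.2 CPM in fl/fl sham and 37.4, 31.4 and 33.6 CPM in fl/fl UUO. In tKO it stood at 51.3, 59.2 and 52.4 CPM in sham and 10.9, 7.599 and 11.03 CPM in UUO. The 3 obstructed tKO kidneys were the lowest of the 12, far from any other library, and the 3 tKO sham kidneys were the highest. The log2 response was -0.20 in fl/fl and -2.46 in tKO, a difference of -2.26 ± 0.22 (SE, edgeR adjusted p = 0.00039). It passed in all 12 fits that left out 1 library. Ruvbl2, a helicase gene that overlaps Gys1 on the other strand, differed by -0.03 (adjusted p = 0.98), and the strand setting of the counting is not given in the sources used here.

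Slc30a7 encodes ZnT7, a zinc transporter of the Golgi (chromosome 3, 115938973 to 116007406, minus strand). Its levels were 24.6, 31.9 and 26.04 CPM in fl/fl sham and 53.9, 53.1 and 43.2 CPM in fl/fl UUO. The tKO levels were 5.59, 4.36 and 5.58 CPM in sham and 41.8, 42.4 and 40.6 CPM in UUO. All 3 tKO sham kidneys lay below every other library, the one that went against its Pcmt1 label included, while obstructed kidneys ran from 40.6 to 53.9 CPM, tKO just below fl/fl. Obstruction raised it by 0.86 in fl/fl and 3.01 in tKO on the log2 scale, and the responses differed by 2.14 ± 0.22 (SE, edgeR adjusted p = 0.00055). This call also held in all 12 fits. On the other strand, the processed pseudogenes Gm43106 and Gm6649 and the microRNA gene Mir669n overlap Slc30a7.

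Rarres2, which encodes the chemoattractant and adipokine chemerin (chromosome 6, 48569696 to 48572789, minus strand), was also lowest in tKO sham. It was measured at 47.5, 43.3 and 49.96 CPM in fl/fl sham and 34.1, 34.8 and 45.2 CPM in fl/fl UUO. In tKO kidneys it was measured at 22.6, 21.2 and 20.7 CPM after sham and 56.98, 76.3 and 62.7 CPM after UUO. The tKO sham group was the lowest and the tKO UUO group the highest, and neither overlapped an fl/fl library. The responses, -0.30 in fl/fl (adjusted p = 0.16) and 1.60 in tKO (adjusted p = 3.4e-06), differed by 1.90 ± 0.23 (SE, edgeR adjusted p = 0.0037), again in all 12 fits. Lrrc61 overlaps it on the other strand and differed by -0.77 (adjusted p = 0.92).

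Irf1, a transcription factor induced by interferon (chromosome 11, 53770014 to 53778374, plus strand), rose with obstruction in fl/fl kidneys alone. Its levels ran 10.7, 9.47 and 7.65 CPM in fl/fl sham and 28.3, 25.95 and 31.2 CPM in fl/fl UUO. The tKO kidneys stood at 19.8, 25.4 and 29.3 CPM in sham and 16.4, 18.7 and 24.3 CPM in UUO. Every tKO sham kidney was above every fl/fl sham kidney, and within tKO the sham and UUO groups overlapped. The response was 1.62 in fl/fl (edgeR adjusted p = 7.5e-06) and -0.32 in tKO (adjusted p = 0.17). The difference of -1.94 ± 0.26 (SE, edgeR adjusted p = 0.008) was called in all 12 fits. Gm17334, a gene annotated as protein-coding, overlaps Irf1 on the other strand.

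Promoter windows of 250 bases upstream of RefSeq starts (GRCm38.p6) were in the table used for 6 of the 8 genes, 9 windows in all. They were searched on both strands for TTCNNNGAA, the palindromic letters of a STAT site, and for CAGAC, the core of a Smad element. TTCNNNGAA was in 2 of the 9 windows, those of Irf1 and Ttll12, and in 7.02% of 32851 promoter windows of that length. CAGAC was in 3 of the 9, 1 each of Slc30a7, Irf1 and Havcr1, and in 42.2% of all windows. The windows of Gys1, Adcy1 and Havcr1, called genes whose response was likewise lower in tKO, held no TTCNNNGAA, nor did the other Irf1 window. The 2 windows with TTCNNNGAA are shown because they hold the match, given in capitals. They lie at chr11:53769764-53770013 (plus strand) and chr15:83595158-83595407 (minus strand). A match describes letters only.
Irf1: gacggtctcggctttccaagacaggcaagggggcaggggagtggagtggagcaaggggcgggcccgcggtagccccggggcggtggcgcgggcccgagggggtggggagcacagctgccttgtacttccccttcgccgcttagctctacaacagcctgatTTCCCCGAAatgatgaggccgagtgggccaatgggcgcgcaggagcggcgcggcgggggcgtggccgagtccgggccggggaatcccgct
Ttll12: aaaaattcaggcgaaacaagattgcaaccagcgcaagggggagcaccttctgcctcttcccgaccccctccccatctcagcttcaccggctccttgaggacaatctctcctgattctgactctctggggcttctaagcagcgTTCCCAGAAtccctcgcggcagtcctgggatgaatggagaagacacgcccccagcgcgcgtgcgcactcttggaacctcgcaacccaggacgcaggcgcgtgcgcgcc

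Ttll12, a member of the tubulin tyrosine ligase-like family (chromosome 15, 83575090 to 83595157, minus strand), stood at 22.4, 22.6 and 23.7 CPM in fl/fl sham and 34.6, 33.2 and 27.98 CPM in fl/fl UUO. It stood at 7.004, 14.9 and 15.4 CPM in tKO sham and 3.01, 2.16 and 2.83 CPM in tKO UUO. The 4 groups did not overlap, and obstructed tKO kidneys were lowest. The responses were 0.48 (adjusted p = 0.22) and -2.20 (adjusted p = 6.8e-05), a difference of -2.68 ± 0.44 (SE, edgeR adjusted p = 0.045). This call held in 2 of the 12 fits that left out 1 library, with adjusted p up to 0.13.

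Adcy1, a calcium-stimulated adenylyl cyclase that makes cyclic AMP (chromosome 11, 7063489 to 7178506, plus strand), had 10.9, 9.39 and 11.96 CPM in fl/fl sham and 11.7, 11.9 and 11.5 CPM in fl/fl UUO. It had 14.5, 14.6 and 14.2 CPM in tKO sham and 4.97, 5.27 and 6.38 CPM in tKO UUO. The tKO sham libraries were the highest and the tKO UUO libraries the lowest of the 12. The difference was -1.50 ± 0.23 (SE, edgeR adjusted p = 0.031) and passed in 4 of the 12 fits.

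Havcr1 encodes KIM-1, the classic marker of injured proximal tubule (chromosome 11, 46735080 to 46779578, plus strand). In fl/fl kidneys it went from 3.197, 1.701 and 2.06 CPM after sham to 1691, 1418 and 1225 CPM after UUO. In tKO kidneys it went from 4.47, 2.596 and 4.98 CPM to 623, 441 and 445 CPM. It rose in both genotypes, the sham groups overlapped, and all 3 obstructed tKO kidneys lay below all 3 obstructed fl/fl kidneys. The log2 responses of 9.28 and 6.99 differed by -2.29 ± 0.38 (SE, edgeR adjusted p = 0.045), called in 5 of the 12 fits, with adjusted p up to 0.13. G930009F23Rik, which the rule for named genes did not take up (chromosome 15, 38436225 to 38455134), had 3, 0 and 1 reads in fl/fl sham and 14, 6 and 6 in tKO sham. In UUO it stood at 13.5, 15.1 and 12.9 CPM in fl/fl and 12.8, 12.3 and 10.6 CPM in tKO, so its difference of -3.46 ± 0.57 (SE, edgeR adjusted p = 0.045) rests on a few reads in sham kidneys. It passed in 4 of the 12 fits.

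**Figure D3:**
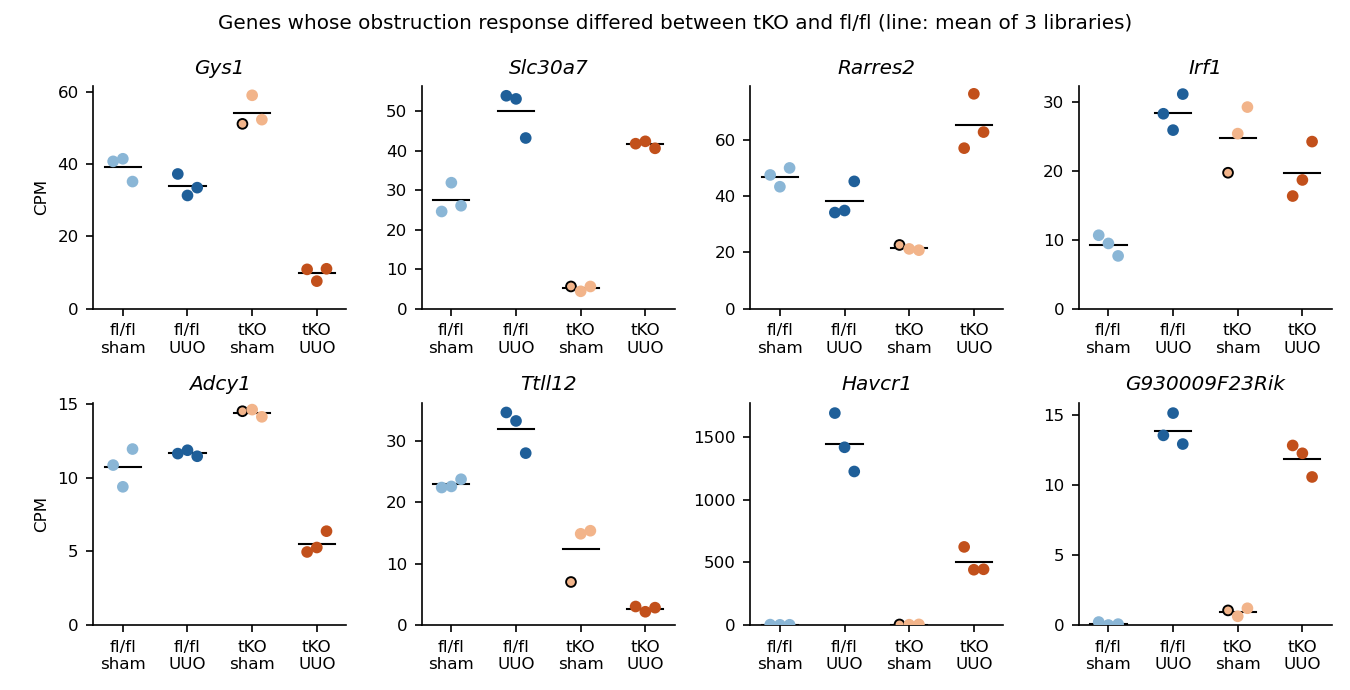
Points show the CPM of the 8 called genes in each of the 12 libraries by group, and lines the mean of 3 libraries, with a black ring around the library labelled tKO sham replicate 1. Gys1 and Adcy1 are lowest in tKO UUO, Slc30a7 and Rarres2 are lowest in tKO sham, and Havcr1 is near 0 CPM in both sham groups.

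Gene lists were then read by their counts and their median difference, beside a median of -0.02 over all genes tested. Of all 19256 genes, 9356 were above 0 and 9900 below. At unadjusted p under 0.05, 6.31% were positive and 6.27% negative. Each list count below is to be read beside these shares. With column totals in place of TMM factors the median over all genes was 0.30, so list medians under that scaling are given relative to it where the sign turned. Cytosolic ribosomal proteins, the shared machinery of translation, had the largest positive median of the 37 lists: 0.70, with 33 of 33 genes above 0. None was called with all libraries, and 18 had unadjusted p under 0.05, all positive (6.31% of all genes). The median response was -0.13 in fl/fl and 0.54 in tKO. Without the library labelled tKO sham replicate 1 the median was 0.82, 28 had unadjusted p under 0.05 and 13 of the 33 were called, all positive. Under column totals it was 0.89, or 0.59 above all genes.

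The ribosomal difference lay mostly in the sham kidneys. The mean log2 CPM of the list was 7.60, 7.47 and 7.51 in fl/fl sham and 7.28, 7.23 and 7.61 in fl/fl UUO. It was 7.32, 6.89 and 6.65 in tKO sham and 7.65, 7.70 and 7.41 in tKO UUO. The tKO sham libraries 2 and 3 were the lowest of the 12, and they were also those with the highest mitochondrial share, whose part in the result was not tested. Rpl37, a protein of the large subunit, stood at 86.03, 84.4 and 72.2 CPM in fl/fl sham and 50.1, 55.2 and 67.3 CPM in fl/fl UUO. It stood at 68.5, 57.8 and 69.8 CPM in tKO sham and 85.4, 94.8 and 82.2 CPM in tKO UUO. The tKO sham kidneys were below all fl/fl sham kidneys and the tKO UUO kidneys above all fl/fl UUO kidneys, a difference of 0.91 ± 0.18 (SE, edgeR adjusted p = 0.068, and 0.03 without the library labelled tKO sham replicate 1). For Rpl23, of the same subunit, the difference was 1.07 (adjusted p = 0.084, and 0.022 without that library). Among the 216 genes with a positive call in that fit, 32 were ribosomal protein genes and 31 ribosomal protein pseudogenes by symbol, a count made after the calls were seen. These are 36% of the 89 such genes and 23% of the 135 such pseudogenes tested, beside 1.09% of all genes. The 77 negative calls held 0 of either. Such pseudogenes are near copies of their parent genes, and reads could be split between them.

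Nuclear genes of oxidative phosphorylation, which encode most subunits of the respiratory chain, had a smaller median decline in tKO. Their median difference was 0.26, with 39 of 43 genes above 0. Unadjusted p was under 0.05 for 9 positive and 1 negative (6.31% and 6.27% of all genes), and none was called. The median response was -1.32 in fl/fl and -1.01 in tKO. The tKO level was lower in both conditions, with a median genotype gap of -0.66 in sham and -0.24 in UUO. The summed level was 16370 to 17200 CPM in fl/fl sham and 9027 to 13000 CPM in tKO sham. It was 5970 to 8062 CPM in fl/fl UUO and 4687 to 5197 CPM in tKO UUO. The median difference was 0.41 and 3 genes were called, all positive, once the library labelled tKO sham replicate 1 was left out. The complex I subunit Ndufs4 stood at 90.01, 95.04 and 103 CPM in fl/fl sham and 59.4, 53.01 and 61.9 CPM in fl/fl UUO. In tKO it stood at 74.2, 47.5 and 46.5 CPM in sham and 53.5, 55.3 and 61.8 CPM in UUO. Replicates 2 and 3 of tKO sham were below all 6 obstructed kidneys, and replicate 1 lay between the obstructed and the fl/fl sham kidneys. The difference was 0.74 (edgeR adjusted p = 0.18), and 1 without the library labelled tKO sham replicate 1 (adjusted p = 0.017). Cox6c, of complex IV, differed by 0.81 (adjusted p = 0.20), and by 1.04 (adjusted p = 0.045) without it. The 13 mitochondrially encoded genes had a median of -0.52, which ran from -0.90 to 0.39 over the fits that left out 1 library, and none was called. With column totals their median was 0.12, or -0.18 relative to all genes.

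Immediate early genes, transcription factors and phosphatases switched on within minutes of a stimulus, had a median difference of -0.72, with 22 of 25 below 0. Unadjusted p was under 0.05 for 9 negative and 1 positive (6.27% and 6.31% of all genes), and none was called. The median response was 2.23 in fl/fl and 1.27 in tKO, and the genotype gap was 1.07 in sham against 0.26 in UUO. The median was -1.03 and 5 were called, all negative, without the library labelled tKO sham replicate 1. Egr1, a zinc finger transcription factor, stood at 8.88, 4.51 and 3.15 CPM in fl/fl sham and 191, 93.4 and 66.4 CPM in fl/fl UUO. It stood at 24.96, 136 and 91.5 CPM in tKO sham and 136, 163 and 143 CPM in tKO UUO. Replicates 2 and 3 of tKO sham were within the range of obstructed kidneys, and replicate 1 lay between them and fl/fl sham. The difference was -3.60 ± 0.71 (SE, edgeR adjusted p = 0.068), and -4.04 (adjusted p = 0.0055) without the library labelled tKO sham replicate 1.

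Fos and Nr4a1 were also high in tKO sham replicates 2 and 3. Fos, a subunit of AP-1, stood at 1.78, 1.26 and 1.67 CPM in fl/fl sham and 5.81, 37.8 and 29.7 CPM in tKO sham, against 22.6, 11.4 and 9.27 CPM in fl/fl UUO and 23.4, 13.7 and 42.1 CPM in tKO UUO. Nr4a1, an orphan nuclear receptor, reached 105 and 177 CPM in tKO sham replicates 2 and 3, above all 6 obstructed kidneys, which ran from 9.38 to 58.6 CPM. In the remaining tKO sham library it was at 12.1 CPM. Junb, like Fos a subunit of AP-1, was at 24.2, 15.8 and 25.3 CPM in fl/fl sham and 52.8, 118 and 69.4 CPM in tKO sham, and all 6 obstructed kidneys were higher, at 137 to 251 CPM. The differences were -3.07 for Fos (edgeR adjusted p = 0.12), -2.81 for Nr4a1 (adjusted p = 0.18) and -1.65 for Junb (adjusted p = 0.12). Without the library labelled tKO sham replicate 1 they were -3.55, -3.33 and -1.87 (adjusted p = 0.014, 0.0065 and 0.033). The high sham values of Egr1, Fos and Nr4a1 lay in the 2 tKO sham libraries with the highest mitochondrial share, whose part was not tested.

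**Figure D4:**
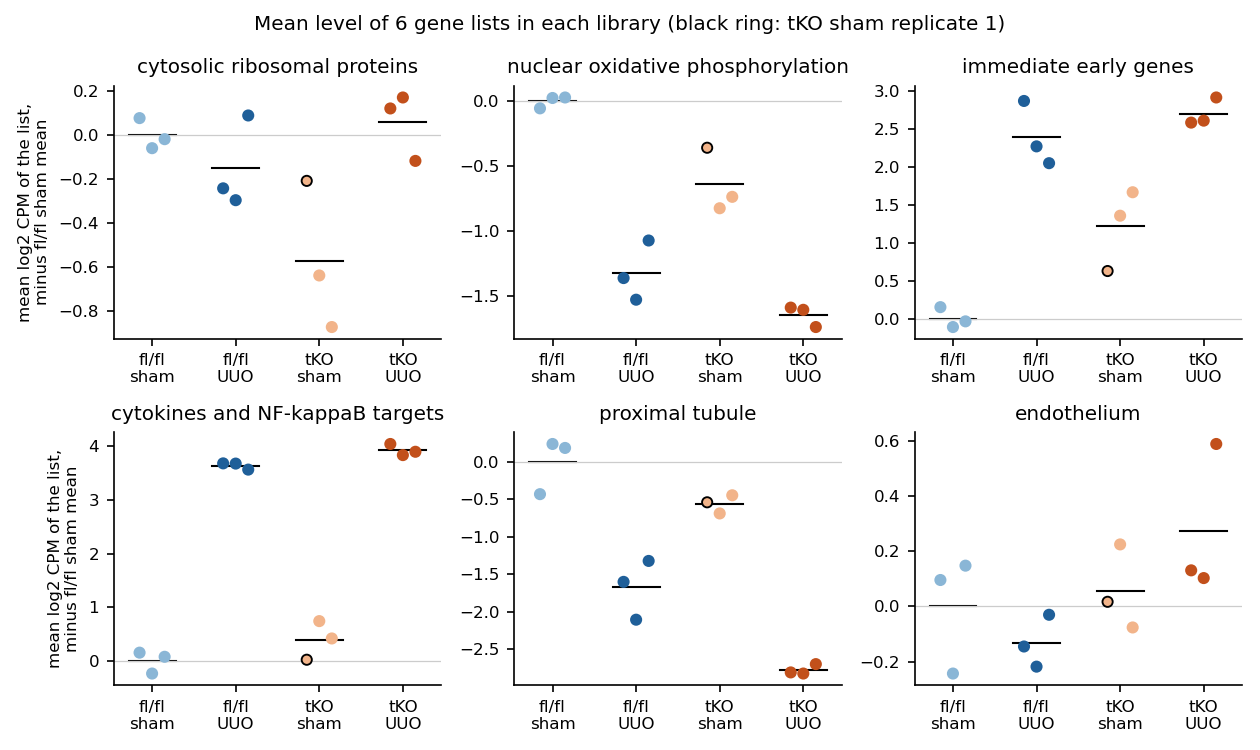
Points show the mean log2 CPM of 6 gene lists in each of the 12 libraries, minus the mean of the fl/fl sham libraries, with group means as lines and a black ring around the library labelled tKO sham replicate 1. In the ribosomal, oxidative phosphorylation and immediate early lists that library lies between fl/fl sham and the other tKO sham libraries.

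Tubular injury genes had a median response of 2.59 in fl/fl and 2.18 in tKO, and a median difference of -0.40 with 23 of 26 below 0. Havcr1 was the 1 gene called of 26 (0.0312% of all genes in the negative direction), and 7 had a negative and 1 a positive difference at unadjusted p under 0.05. The keratin Krt20 stood at 101, 88.6 and 47.5 CPM in fl/fl UUO and 45.1, 26.5 and 30.98 CPM in tKO UUO. In sham it was under 1 CPM in 5 of the 6 libraries and at 5.71 CPM in tKO sham replicate 2. Its difference was -4.45 (edgeR adjusted p = 0.11), and -5.02 (adjusted p = 0.022) without the library labelled tKO sham replicate 1. It was -1.88 without tKO sham replicate 2, and over the 12 fits it ran from -5.48 to -1.88, with adjusted p up to 0.43. Anxa3, an annexin of the list, went from 20.5, 17.5 and 21.4 to 187, 169 and 171 CPM in fl/fl and from 34.2, 31.3 and 35.1 to 160.1, 131 and 155 CPM in tKO. The groups did not overlap in sham or in UUO, and the difference was -0.99 ± 0.23 (SE, adjusted p = 0.096). Lcn2, the injury marker NGAL, named here after its values were seen, differed by -0.22 ± 0.64 (SE, adjusted p = 0.93). The list median was -0.24 and 3 genes were called, all negative, in the fit without the library labelled tKO sham replicate 1.

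Cytokine genes and NF-κB targets had a median difference of -0.59, with 19 of 25 below 0, 7 negative and 0 positive at unadjusted p under 0.05 (6.27% and 6.31% of all genes) and none called. The median was -0.63 and Cxcl1 alone was called without the library labelled tKO sham replicate 1. Cxcl1, a neutrophil chemokine, stood at 1.14, 0.962 and 0.772 CPM in fl/fl sham and 102, 81.8 and 57.9 CPM in fl/fl UUO. It stood at 0.745, 1.77 and 36.5 CPM in tKO sham and 70.2, 67.4 and 98.2 CPM in tKO UUO. Its difference of -3.67 (edgeR adjusted p = 0.23) rested on tKO sham replicate 3: without that library it was -0.37. Il34 and Csf1, both ligands of the macrophage receptor CSF1R, differed by -0.68 and -0.91 (adjusted p = 0.24 and 0.27). Ccl2, a monocyte chemokine chosen after its values were seen, differed by -0.23 ± 0.59 (SE, adjusted p = 0.92). In the interferon list Irf1 was the 1 gene called of 28. The median was -0.30, and 6 members had a negative and 1 a positive difference at unadjusted p under 0.05. In the fit that left out the library labelled tKO sham replicate 1 it was -0.36, with Irf1 again called alone. Gbp2, a guanylate-binding protein and an Irf1 target, stood at 69.3, 61.3 and 60.99 CPM in fl/fl UUO and 38.2, 36.6 and 25.5 CPM in tKO UUO. The obstructed groups did not overlap, and the difference was -1.36 ± 0.35 (SE, adjusted p = 0.12).

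Extracellular matrix genes showed no call with all libraries. The fibrillar collagen and matrix list had a median difference of -0.25, with 21 of 28 below 0 and 3 members in each direction at unadjusted p under 0.05. With column totals that median was 0.08, or -0.22 relative to all genes. It was -0.39, with 2 genes called, both negative, without the library labelled tKO sham replicate 1. Median responses were 2.02 in fl/fl and 1.65 in tKO, and the tKO level was higher by a median of 0.94 in sham and 0.77 in UUO. The main fibril collagens, chosen after their values were seen, had responses close together: Col1a1 rose by 3.68 in fl/fl and 3.31 in tKO, a difference of -0.36 ± 0.38 (SE, edgeR adjusted p = 0.75). Col3a1 differed by -0.01 ± 0.38 (SE, adjusted p = 1). Levels of Col1a1 were higher in tKO in both conditions, at 21.3, 15.3 and 27.5 CPM in fl/fl sham and 56.3, 85.98 and 58.6 CPM in tKO sham, and at 262, 317 and 240 CPM in fl/fl UUO and 521, 558 and 917 CPM in tKO UUO. Neither pair of groups overlapped. Acta2, smooth muscle actin and the usual myofibroblast marker, differed by -0.61 ± 0.55 (SE, adjusted p = 0.71), and fibronectin (Fn1) by -1.11 ± 0.52 (SE, adjusted p = 0.40). Over the fits that left out 1 library these ran from -1.08 to -0.26 for Acta2, and from -1.44 to -0.51 for Fn1, whose smallest difference came without tKO sham replicate 3. These standard errors leave room for differences of either sign in Col1a1, Col3a1 and Acta2. Acta2 did not stand for its list of myofibroblast and stromal genes, whose median difference was 0.07, with 12 of 20 above 0. In that list 3 members were positive and 0 negative at unadjusted p under 0.05, and none was called. Its median ran from -0.02 to 0.36 over the fits that left out 1 library.

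Single matrix genes departed from that pattern. Col14a1, a collagen that decorates fibrils, stood at 24.2, 14.4 and 19.9 CPM in fl/fl sham and 34.4, 35.5 and 55.1 CPM in fl/fl UUO. It stood at 55.4, 77.2 and 143 CPM in tKO sham and 54.2, 70.6 and 50.9 CPM in tKO UUO. All tKO sham kidneys were above all fl/fl UUO kidneys, and tKO UUO lay within or just below the range of tKO sham. The difference was -1.74 ± 0.42 (SE, edgeR adjusted p = 0.10), and -2 (adjusted p = 0.022) without the library labelled tKO sham replicate 1. Loxl2, a collagen cross-linking oxidase, differed by -1.43 (adjusted p = 0.12, and 0.03 without that library). Elastin (Eln) had a difference of 1.30 (adjusted p = 0.13), and Lox, which cross-links both, of 0.88 (adjusted p = 0.27).

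In the basement membrane list, 18 of 20 genes were below 0 (median -0.33), and none was called. At unadjusted p under 0.05, 5 were negative and 1 positive (6.27% and 6.31% of all genes). Once the library labelled tKO sham replicate 1 was left out, Nid1, Lama2 and Col4a2 were called, all negative, and the median was -0.28. Nid1, the linker protein nidogen, stood at 33.2, 23.2 and 31.96 CPM in fl/fl sham and 105, 96.6 and 129.9 CPM in fl/fl UUO. It stood at 57.5, 90.9 and 162 CPM in tKO sham and 102, 121 and 85.4 CPM in tKO UUO. It rose in fl/fl by 1.91 on the log2 scale and had a response of 0 in tKO, where sham levels reached those of obstructed kidneys in 2 of 3 libraries. The difference was -1.91 ± 0.39 (SE, edgeR adjusted p = 0.069), and -2.20 (adjusted p = 0.0066) without that library. The laminin chain Lama2 and the type IV collagen chain Col4a2 differed by -1.69 and -0.91 (adjusted p = 0.12 for each, and 0.019 and 0.018 without it).

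TGF-β pathway genes, the axis in the series title, were not called in any of the ligand, receptor and Smad list, with or without the library labelled tKO sham replicate 1. The list median was -0.14 over 30 genes, 2 positive and 4 negative at unadjusted p under 0.05 (6.31% and 6.27% of all genes). With column totals it was 0.14, or -0.16 relative to all genes, and -0.17 once the library labelled tKO sham replicate 1 was left out. The ligand Tgfb1 went from 16.5, 13.8 and 16.1 to 107, 98.5 and 76.3 CPM in fl/fl and from 18.9, 22.01 and 11.4 to 85.2, 127 and 91.1 CPM in tKO. It rose in both genotypes, by 2.60 and 2.52, and the difference of -0.08 ± 0.30 (SE, edgeR adjusted p = 0.95) changed sign when any of 3 libraries was left out and with column totals. The receptor Tgfbr2 stood at 77.8, 63.2 and 104 CPM in fl/fl sham and 192, 166 and 176 CPM in fl/fl UUO. It stood at 108, 77.4 and 43.7 CPM in tKO sham and 170, 153 and 143 CPM in tKO UUO. Obstructed groups of the 2 genotypes overlapped, and the difference was -0.11 ± 0.36 (SE, adjusted p = 0.94), or 0.23 without the library labelled tKO sham replicate 1.

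The partner receptor Tgfbr1 was decided by 1 library: it stood at 96.3, 86.5 and 6.47 CPM in tKO UUO, against 73.3, 72.6 and 72.9 CPM in fl/fl UUO. Its difference was -0.24 ± 1.09 (SE, edgeR adjusted p = 0.96), and 0.30 without tKO UUO replicate 3. Among the signal transducers, Smad3 had the smallest p, with 47.6, 42.8 and 40.0 CPM in fl/fl sham and 102, 79.01 and 71.4 CPM in fl/fl UUO. It had 51.6, 75.5 and 57.01 CPM in tKO sham and 78.8, 85.6 and 83.5 CPM in tKO UUO. It rose in fl/fl by 0.95, and its response in tKO was 0.43 (adjusted p = 0.057), a difference of -0.52 ± 0.24 (SE, adjusted p = 0.39). The differences were -0.84 for Smad2, -0.16 for Smad4 and -0.27 for the inhibitor Smad7 (adjusted p = 0.67, 0.80 and 0.91). Smad2 was at 31.3 CPM in tKO UUO replicate 3 and at 9.81 and 8.98 CPM in the other two.

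Genes known to respond to TGF-β had a median difference of -0.50, with 17 of 21 below 0, 4 negative and 0 positive at unadjusted p under 0.05, and none called. Median responses were 1.89 in fl/fl and 1.60 in tKO, and the genotype gap was 0.63 in sham and 0 in UUO. With the library labelled tKO sham replicate 1 left out, the median was -0.40 and Tgfbi alone was called. Tgfbi, a secreted matrix protein named for its induction by TGF-β, stood at 8.67, 7.77 and 7.97 CPM in fl/fl sham and 108, 108 and 69.7 CPM in fl/fl UUO. It stood at 16.99, 18.3 and 27.3 CPM in tKO sham and 106, 111 and 86.4 CPM in tKO UUO. Sham groups did not overlap and obstructed groups did. The difference was -1.26 ± 0.30 (SE, edgeR adjusted p = 0.10), and -1.39 (adjusted p = 0.044) without the library labelled tKO sham replicate 1.

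**Figure D5:**
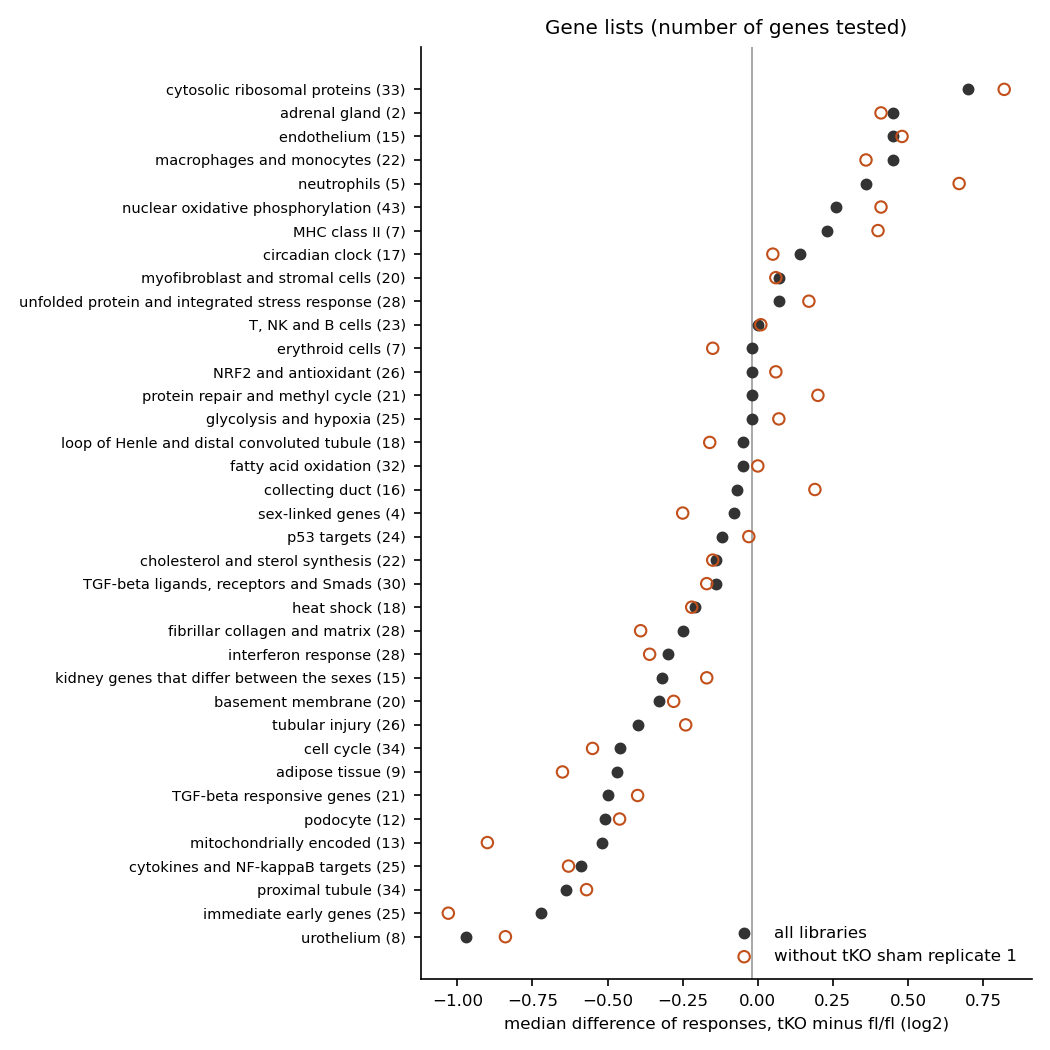
Points show the median difference of responses (tKO minus fl/fl, log2) of each of 37 gene lists with all libraries (filled) and without the library labelled tKO sham replicate 1 (open), with the number of genes tested in brackets and a grey line at the median of all genes, -0.02. Ribosomal proteins lie highest at 0.70, and urothelium markers, 8 genes, lowest at -0.97.

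List medians moved with single libraries. Over the 12 fits they ran from 0.53 to 0.85 for ribosomal proteins, 0.16 to 0.42 for oxidative phosphorylation, -1.03 to -0.55 for immediate early genes, -0.55 to -0.24 for tubular injury, -0.63 to -0.42 for cytokines and -0.39 to -0.18 for interferon. They ran from -0.40 to -0.10 for fibrillar matrix, -0.50 to -0.22 for basement membrane, -0.26 to -0.12 for TGF-β ligands, receptors and Smads, and -0.75 to -0.30 for genes that respond to TGF-β. Among cell types and the cell cycle they ran from -0.81 to -0.38 for proximal tubule, 0.24 to 0.60 for endothelium, 0.06 to 0.70 for macrophages and -0.69 to -0.37 for the cell cycle. No median of these 14 lists changed sign in those fits.

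Markers of cell types moved apart in direction, and none but Irf1 and Havcr1 of any list was called with all libraries. Proximal tubule genes had a median response of -2.30 in tKO and -1.53 in fl/fl. The median difference was -0.64 with 30 of 34 below 0, and 7 were negative and 0 positive at unadjusted p under 0.05 (6.27% and 6.31% of all genes). The phosphate transporter Slc34a1 went from 1676, 3319 and 2925 to 1038, 756 and 1248 CPM in fl/fl and from 2480, 3045 and 3152 to 367, 467 and 447 CPM in tKO. It fell in both, the sham groups overlapped and the obstructed groups did not, and the difference was -1.38 ± 0.36 (SE, edgeR adjusted p = 0.13). The endocytic receptor Cubn differed by -0.77 (adjusted p = 0.21). The summed level of the 34 markers was 49420 to 67490 CPM in fl/fl sham and 39020 to 58590 CPM in tKO sham, with a median genotype gap already at -0.55. It was 11540 to 18720 CPM in fl/fl UUO and 8413 to 10690 CPM in tKO UUO.

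Endothelial and macrophage markers leaned the other way. The median over 15 endothelial genes was 0.45, with 5 positive and 0 negative at unadjusted p under 0.05. Plvap, of the diaphragms of fenestrated capillaries, stood at 149.8, 148 and 166 CPM in fl/fl sham and 199, 167 and 213 CPM in fl/fl UUO. It stood at 96.2, 116 and 83.9 CPM in tKO sham and 217, 227 and 265 CPM in tKO UUO. Both tKO groups lay outside the fl/fl range, below it in sham and above it in UUO, with a difference of 0.94 ± 0.24 (SE, edgeR adjusted p = 0.12). Macrophage and monocyte genes also had a median of 0.45, over 22 genes, 4 positive and 1 negative. Their summed level was 317 to 368 CPM in fl/fl sham and 349 to 431 CPM in tKO sham, against 1425 to 1762 CPM in fl/fl UUO and 1896 to 3676 CPM in tKO UUO. The fractalkine receptor Cx3cr1 stood at 18.8, 19.6 and 13.5 CPM in fl/fl UUO and 33.9, 53.6 and 56.8 CPM in tKO UUO, with both sham groups between 3.47 and 4.78 CPM. Its difference was 1.37 ± 0.29 (SE, adjusted p = 0.069). Cell cycle genes had a median of -0.46, with 31 of 34 below 0, 7 negative and 0 positive. Cdc20, an activator of the anaphase-promoting complex, stood at 1.63, 1.11 and 2.32 CPM in fl/fl sham and 5.14, 2.596 and 3.99 CPM in tKO sham, and at 7.44, 7.62 and 8.25 and 5.82, 6.995 and 8.201 CPM in UUO, a difference of -1.36 (adjusted p = 0.15). No marker of these lists was at 0 in all 12 libraries. Without the library labelled tKO sham replicate 1 the medians were -0.57 for proximal tubule, 0.48 for endothelium, 0.36 for macrophages and -0.55 for the cell cycle, with none called.

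Among the 293 genes called without the library labelled tKO sham replicate 1, 40 fell in fl/fl and rose in tKO. A further 10 rose in fl/fl and fell in tKO. In tKO alone 117 rose and 20 fell, and in fl/fl alone 23 rose and 34 fell. The rest moved the same way in both genotypes by unequal amounts, 28 up and 21 down. The genotype gap was larger in sham than in UUO for 216 of the 293 and changed sign for 236. These genes were called on the difference between those gaps, so a change of sign is partly built in. The shares over all genes were not counted. Casp9, the initiator caspase of the apoptosome, turned on the left-out library. It stood at 27.1, 22.9 and 30.7 CPM in fl/fl sham kidneys and 27.4, 1.66 and 2.19 CPM in tKO sham kidneys. The 2 low libraries stood apart from all 10 others, obstructed kidneys ran from 18.01 to 28.2 CPM, and the difference was 3.80 (edgeR adjusted p = 0.0019) without the left-out library but 1.27 (adjusted p = 0.61) with it. Among sham kidneys, the RNA-processing genes Cpsf6 and Lsm12 and the mitochondrial import gene Tomm6 were likewise low in tKO replicates 2 and 3 only. Their differences without the left-out library were 2.26, 2.19 and 2.22 (edgeR adjusted p = 0.0039, 0.0039 and 0.0017), against 1.32, 1.24 and 1.46 with all libraries. Tomm6, at 11.5 and 13.4 CPM in those 2 libraries, also fell with obstruction in fl/fl, from 48.5, 38.5 and 41.9 to 19.3, 18.3 and 24.3 CPM.

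In Traf3 and Nmt2 the left-out library lay above every fl/fl sham library, as the other tKO sham libraries did. Traf3, a signalling adaptor of TNF and interferon pathways, stood at 3.69, 4.22 and 3.47 CPM in fl/fl sham and 18.5, 6.11 and 31.03 CPM in fl/fl UUO. It stood at 30.9, 35.3 and 33.3 CPM in tKO sham and 2.401, 4.102 and 3.55 CPM in tKO UUO. All 3 tKO sham kidneys were high, and the difference was -5.64 without that library (edgeR adjusted p = 0.033) and -5.59 with it (adjusted p = 0.068). Nmt2, an N-myristoyltransferase, stood at 29.5, 43.7 and 42.3 CPM in tKO sham and 8.63, 8.59 and 15.3 CPM in tKO UUO, with -3.11 (adjusted p = 0.031) and -2.95 (adjusted p = 0.069). Kat14 and Tent4b, in contrast, passed in no other of the 12 fits than the one without the library labelled tKO sham replicate 1. Kat14, an acetyltransferase, stood at 18.6, 14.8 and 13.4 CPM in fl/fl sham and 17.96, 43.2 and 44.9 CPM in tKO sham, so the left-out library lay within the fl/fl sham range. It was at 8.75, 7.64 and 8.98 CPM in tKO UUO, below every other library, and differed by -2.70 (adjusted p = 0.015) without the left-out library and by -2.38 (adjusted p = 0.077) with it. Tent4b, a poly(A) polymerase, was at 93.1 CPM in tKO sham replicate 3 and between 6.74 and 15.7 CPM in the other 11 libraries. Its difference was -2.49 (adjusted p = 0.16) with all libraries, -1.01 without tKO sham replicate 3, and -2.88 (adjusted p = 0.046) without the library labelled tKO sham replicate 1.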

How the data were processed

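Whole-kidney mRNA was sequenced by the authors, from TRNzol total RNA with an ABclonal mRNA library kit, per the labels' protocols. The submitters' processing notes name fastp, HISAT2, StringTie and GRCm38/mm10, without versions or the counting step. The deposited table gives 57180 genes with raw counts and with FPKM, a value scaled for length and depth by the authors, and only the counts were used here. The locus column was not on GRCm38, so positions come from GENCODE M21 by gene identifier, matched for 18700 of 19256 tested genes. Promoters come from RefSeq.

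Counts of all 18 libraries (6 groups of 3) were filtered with filterByExpr, scaled by TMM and fitted with edgeR 4.0.16 (limma 3.58.1, R 4.3.3, 12 residual degrees of freedom). The contrast was tested by quasi-likelihood and adjusted by Benjamini-Hochberg over all genes at 0.05. Standard errors are the size of the difference divided by the square root of F. The biological coefficient of variation was 0.283. DESeq2 1.42.0, other scalings, filters, blocks and leaving out libraries were alternatives. The script was tested on simulated data. The labels give no pairing of libraries, and the main fit used none.

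Named genes were Pcmt1, 7 TGF-β pathway genes, up to 12 called genes per direction of at least 5 CPM and a real symbol, and 4 members of each of 37 lists (756 of 776 members tested) with the smallest p; others are said to be chosen later, and some are not reported here. The same rule was applied without the library labelled tKO sham replicate 1. Members and lists were chosen with earlier results of these data known.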

Additional observations from a re-analysis of the deposited data

Results flagged for a closer look

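The obstruction response differed between tKO and fl/fl kidneys, by edgeR's test of the difference itself, for 8 genes. The difference (tKO minus fl/fl, log2) was -2.26 for Gys1, 2.14 for Slc30a7, 1.90 for Rarres2 and -1.94 for Irf1, and these 4 passed whichever of the 12 libraries was left out. It was -1.50 for Adcy1, -2.68 for Ttll12, -3.46 for G930009F23Rik and -2.29 for Havcr1, and each of these 4 was lost in at least 7 of the 12 fits. The 3 tKO UUO libraries lay outside the range of the 3 fl/fl UUO libraries for all 8, above it for Rarres2 and below it for the other 7. The 8 were called from a contrast that holds these same libraries, so this separation is no further evidence. The share of all genes so separated was not counted.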

How the results depend on the processing

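The count of 8 called genes ran from 4 to 293 as each of the 12 libraries was left out, and it was 171 without fl/fl UUO replicate 3. It was 412 with DESeq2, 0 with column totals, and 721 with the library labelled tKO sham replicate 1 and fl/fl UUO replicate 3 both left out, a setting chosen after the data were seen. A fit with that tKO library alone kept in its group, also chosen later, is given below by sizes of difference only. RLE factors and a filter at 1 CPM each gave the same 8 genes. Leaving out mitochondrial genes gave 9, among them all 8, and no filter gave 6, all among the 8. The 12 libraries alone gave 7, of which only 4 were among the 8. With the replicate number as a block, 7 genes were called over 18 libraries, all among the 8. Over 12 libraries 4 were called, of which 3 were among the 8. Deviations from group means had correlations from -0.1 to 0.11 over 18 pairs of same-numbered libraries. Over 36 other-numbered pairs they ran from -0.088 to 0.122. So no pairing by number was seen across all genes, but these ranges cannot exclude one that touches few genes. Called genes with responses in opposite directions numbered 0, and 0 to 50 over the 12 fits.

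Of 63 genes followed through all settings, 12 changed sign in at least 1, and none was called there. With column totals the differences were 0.07 for Pcmt1, 0.16 for Tgfb1, 0.15 for Tgfbr1, 0.08 for Tgfbr2, 0.16 for Smad4, 0 for Smad7, 0.14 for Ccl2 and 0.38 for Col3a1. Over the fits without 1 library, Pcmt1 ran from -0.33 to 0.33, Tgfb1 from -0.30 to 0.12, Tgfbr1 from -0.68 to 0.30, Tgfbr2 from -0.38 to 0.23, Smad7 from -0.67 to 0.21, Lcn2 from -0.71 to 0.25, Ccl2 from -0.52 to 0.09, and Col3a1 from -0.45 to 0.17. With both libraries left out, Pcmt1 was at 0.36, Tgfbr2 at 0.22, Smad7 at 0.17 and Lcn2 at 0.09. With only the library labelled tKO sham replicate 1 kept in its group, Nr4a1 was at 0.19, Cxcl1 at 0.30, Col3a1 at 0.37 and Casp9 at -0.07. Col3a1 was at 0 over 12 libraries and at 0.04 with no filter. The cause was not tested.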

Other observations

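Markers of tissues next to the kidney were present in unequal amounts. The summed level of 10 adipose genes was 540 to 662 CPM in fl/fl sham and 795 to 1398 CPM in tKO sham, against 202 to 233 CPM in fl/fl UUO and 372 to 471 CPM in tKO UUO. The mean log2 CPM of the 9 tested was 3.89, 0.95 and 0.93 in fl/fl sham and 2.84, 3.89 and 3.03 in tKO sham. By that mean fl/fl sham replicate 1 lay with the tKO sham libraries, and the median genotype gap in sham was 0.09. Ucp1, the uncoupling protein of brown fat, stood at 0.924, 0.814 and 0.579 CPM in fl/fl sham and 2.09, 6.33 and 7.18 CPM in tKO sham. Of the urothelium genes, the basal keratin Krt5 ran from 2.19 to 50.3 CPM within tKO sham alone. The 9 erythroid genes summed to 716 to 1546 CPM in fl/fl sham and 684 to 3535 CPM in tKO sham. The part of these markers in the differences above was not tested.

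Several genes had 1 library far from the rest of its group. The B cell gene Cd79b stood at 5.58, 20.9 and 4.47 CPM in tKO UUO, and the heat shock gene Hsp90aa1 at 326, 151 and 121 CPM in fl/fl UUO and 76.2, 53.7 and 168 CPM in tKO sham. Their differences were 1.80 and -1.97 (edgeR adjusted p = 0.32 and 0.14).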
